A study of Rattus norvegicus with 6 samples.

Results

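Interferon signalling and interferon-stimulated genes were followed in cultured cells of the rat nucleus pulposus, the soft centre of an intervertebral disc. The group was defined by name as 41 genes that sense double-stranded RNA, carry the interferon signal or are stimulated by it. Of these, 39 were found among the 32623 genes of the expression table and 34 had enough counts to be tested. Ddx60 and Oas1b were not matched by symbol and were not analysed here.

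In 3 libraries, named shBmal1, a lentiviral hairpin targeted the clock gene Bmal1, and in the other 3, named shNC, the virus carried a control hairpin, with 72 hours between transduction and collection. The source was the lumbar spine of male rats of the Sprague-Dawley stock at 4 weeks of age, and cells of passages 3 to 5 were taken. Both groups thus carry a lentivirus and a hairpin, and no untransduced cells were analysed here. The number of animals is not stated, nor is it stated that replicates were grown separately, so the error behind each p-value is the spread among these libraries and may be technical.

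Cells detect viral or misplaced double-stranded RNA with the helicases RIG-I (Ddx58) and MDA5 (Ifih1), which signal through the mitochondrial adaptor MAVS to the kinase TBK1 and the transcription factors IRF3 and IRF7. Secreted type I interferon binds the receptor chains IFNAR1 and IFNAR2, whose kinases JAK1 and TYK2 activate STAT proteins. STAT2 and IRF9 are parts of the complex ISGF3, which binds the interferon-stimulated response element, a tandem of GAAA cores, in the promoters of antiviral genes. Most cells without an infection keep the antiviral genes low.

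The upstream sequences show where that element lies in these genes. The motif searched was GAAA, 2 bases of any kind and GAAA again, on both strands, in the 250 bases before the annotated start of each gene in RefSeq (build GRCr8), and 27 of the 39 genes had such a window. The motif was in 13 of these 27 windows (48.1%), against 3.29% over all 27456 genes with a window. Of its holders, 7 were members called higher in shBmal1 (adjusted p under 0.05). A further 3 were not called (Ifi27, Irf7 and Parp14), and 3 had too few counts to test (Ifi44l, Oas1a and Oas3). Windows existed for 10, 9 and 4 members of these kinds, and for 4 called lower, which held none. The windows of members called lower were those of Ifnar1, Ifnar2, Irf3 and Mavs, which encode receptor chains, a transcription factor and an adaptor. Ifit2, Irf2, Adar and Tyk2, also called lower, had no window. Of the 7 called-higher genes with the motif, Rsad2, Ifit3, Bst2 and Ifi44 reached the count filter of the test in shBmal1 libraries alone. Their direction was thus largely fixed, and calls and motif are not set against each other here. The windows of the 7 called-higher genes, and that of Oas1a, which has 2 overlapping motifs but no count in any library, are given on the strand of each gene, with motif letters in capitals and at most 15 bases on each side.
Rsad2 (chr6:48788243-48788282, reverse strand, motif ending 138 bases before the start): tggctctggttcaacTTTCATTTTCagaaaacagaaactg
Ifit3 (chr1:241527267-241527306, forward strand, 35 bases): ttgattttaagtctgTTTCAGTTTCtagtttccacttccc
Ifih1 (chr3:67684003-67684042, reverse strand, 50 bases): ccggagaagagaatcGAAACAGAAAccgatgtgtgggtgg
Isg20 (chr1:142239952-142239991, forward strand, 83 bases): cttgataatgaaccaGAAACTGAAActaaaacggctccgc
Bst2 (chr16:18255068-18255113, reverse strand, 116 bases): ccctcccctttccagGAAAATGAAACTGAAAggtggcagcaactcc
Ifi44 (chr2:243303842-243303881, reverse strand, 17 bases): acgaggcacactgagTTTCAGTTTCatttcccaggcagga
Eif2ak2 (chr6:21941123-21941153, forward strand, 7 bases): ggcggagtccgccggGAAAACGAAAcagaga
Oas1a (chr12:41330410-41330455, forward strand, 26 bases): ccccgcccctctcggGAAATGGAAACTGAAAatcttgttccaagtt
The windows of Oasl, Stat2 and Irf1, also called higher, held none of these letters. The motif of TTC, 3 bases of any kind and GAA, a palindrome known as a binding sequence of activated STAT dimers, was in 8 of the 27 windows, against 7.52% of all windows. Of the 10 called-higher members with a window, Irf1 and Bst2 held it. These matches describe the letters present and not binding.

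Total counts ran from 8773762 to 11679587 in shBmal1 and from 44043803 to 49783710 in shNC, so that 3 counts correspond to 0.245 to 0.323 CPM (counts scaled to library size and composition) in a shBmal1 library and 0.0638 to 0.0713 CPM in a shNC library. The mean total was 4.44-fold higher in shNC, and mitochondrial rRNA took 0.722 to 1.31% of counts in shBmal1 and 0.0330 to 0.0602% in shNC. Depth and RNA class move with the groups and cannot be told apart from them. The hairpin's target, listed as Arntl, had 2.16, 4.24 and 2.07 CPM in shBmal1, against 27.4, 29.7 and 31.7 CPM in shNC (log2 fold change −3.37 ± 0.26, SE; adjusted p = 1.17e-05, edgeR). By exact permutation of the 6 libraries (two-sided) p was 0.1, which is as small as 3 against 3 can give. Of 18 nucleus pulposus and notochord markers found, 15 were tested, of which 3 were higher, 7 lower and 5 not called. Of all tested genes, 36.0% were called higher and 35.3% lower. The markers found summed to 615 to 637 CPM in shBmal1 and 3030 to 3256 CPM in shNC. Most of the shNC sum came from Mgp, Acan and Pax1, with means of 1615, 648 and 527 CPM there. In shBmal1 their means were 198, 32.8 and 84.9 CPM. Krt8, Ncdn, Nog and Col2a1 were also called lower. Foxf1, Slc2a1 and Ca3 were called higher, and Sox9 was not called (log2 fold change −0.04). The notochord markers Tbxt and Shh had no count in any library. In these bulk libraries, fewer cells of a type and less RNA per cell cannot be told apart.

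Interferon genes moved in both directions. At a Benjamini-Hochberg adjusted p under 0.05 in edgeR's quasi-likelihood test over all 14342 tested genes, 15 of the 34 tested members were higher in shBmal1, 8 were lower and 11 were not called. Of all tested genes 71.3% were called, 36.0% higher and 35.3% lower, against 44.1% and 23.5% of the members. The median log2 fold change was 0.31 over the tested members and −0.01 over all tested genes. Of the 15 that rose, 7 reached the count filter in shBmal1 libraries alone, which largely fixed their direction. Among the 23 members with a mean of at least 5 CPM over all libraries, tested with only such genes, 7 rose and 6 fell, with a median of 0.08, while 38.2% of all genes tested in that setting were higher, 40.3% were lower and their median was −0.045. Those 7 still include Rsad2 and Oasl, which reached the count filter in shBmal1 libraries alone. In the main fit a change of at least 2-fold was called upward for 14 members and downward for 5, against 25.4% and 21.9% of all tested genes. The libraries of the groups did not overlap for 15 members that were higher and 8 that were lower, against 38.2% and 39.1% of all tested genes. With the authors' FPKM rescaled to TPM, which moved the median of all genes to −0.38, 13 members were called higher and 13 lower, and the members' median was −0.28, while 26.5% of all genes tested in that scaling were higher and 46.9% lower. The 7 members that passed the filter through shBmal1 alone could only raise the members' median.

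**Figure D1:**
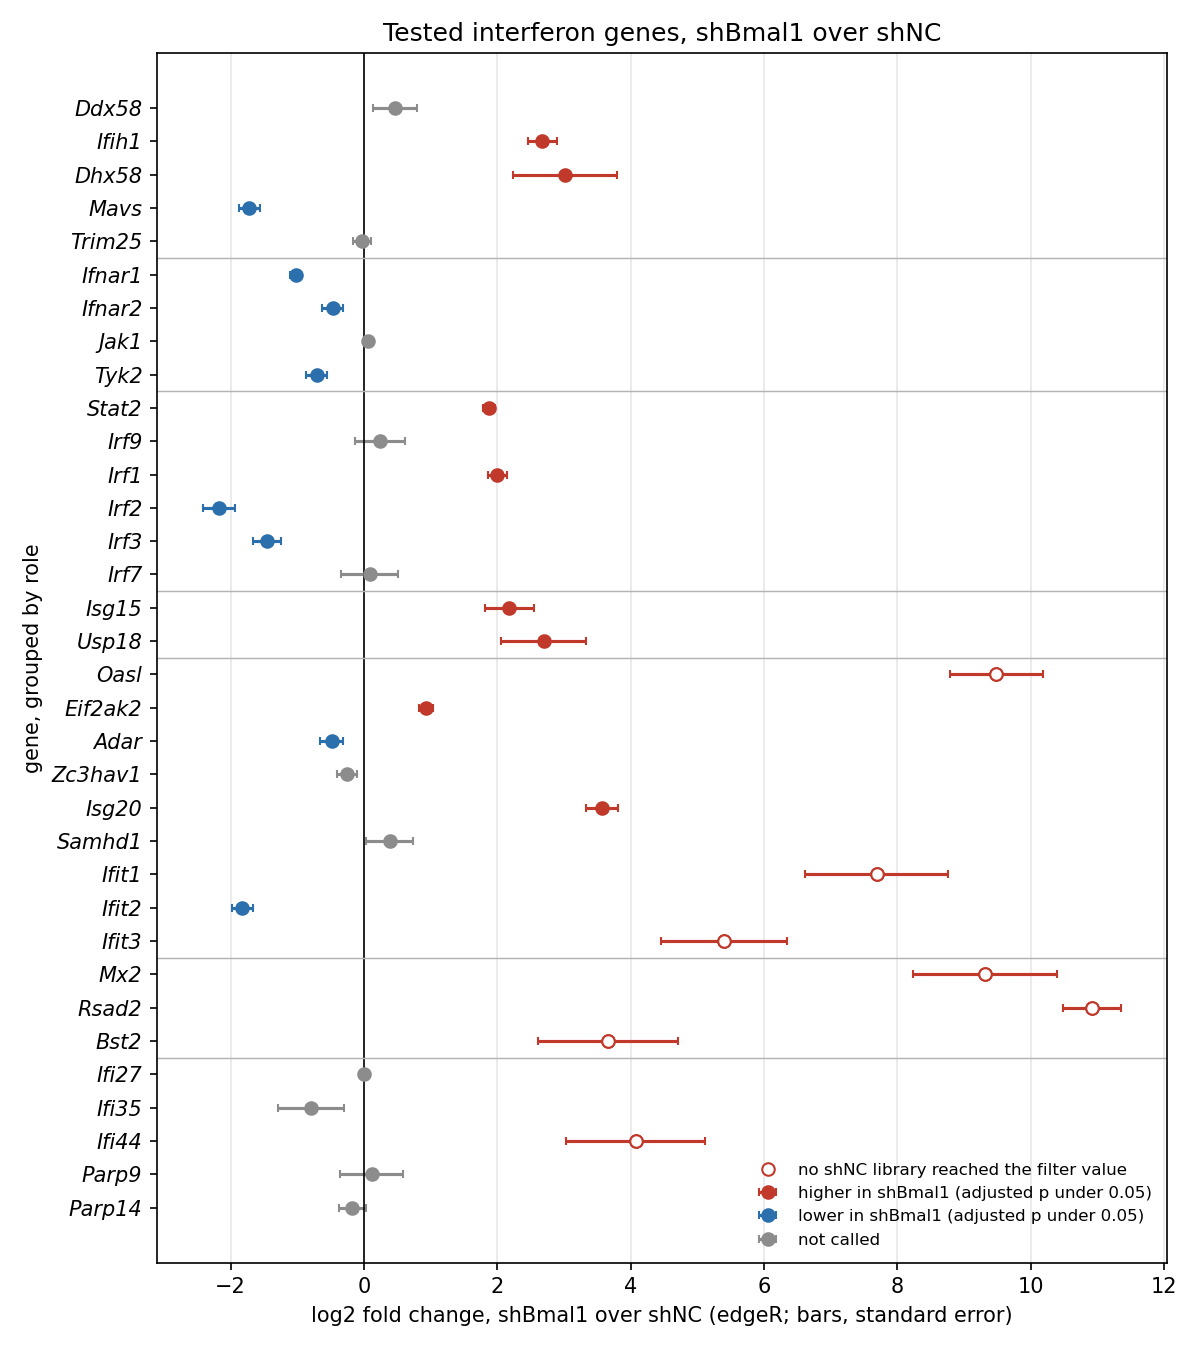
Log2 fold change (shBmal1 over shNC, edgeR; bars, standard error) of the 34 tested interferon genes, grouped by role from sensing at the top to other stimulated genes at the bottom. Filled red points are called higher, blue lower and grey not called, and white points mark called genes for which no shNC library reached the filter value, whose fitted value depends on the prior count. The 4 receptor and kinase genes lie between −1.02 and 0.06, while the effector genes Rsad2, Oasl and Mx2 lie farthest to the right.

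Sensors of double-stranded RNA and their adaptor did not move as one. Ifih1, which encodes MDA5 (ENSRNOG00000006227, chromosome 3), had 45.5, 48.7 and 32.7 CPM in shBmal1, against 8.06, 5.16 and 6.63 CPM in shNC. Every shBmal1 library was above every shNC library, and the log2 fold change was 2.68 ± 0.21 (SE; adjusted p = 1.32e-05, edgeR). Dhx58, which encodes LGP2, a relative of both helicases that lacks the signalling domains, had 60, 52 and 25 counts in shBmal1, against 6, 49 and 16 counts in the deeper shNC libraries. In CPM these were 6.47, 4.24 and 2.07 in shBmal1, against 0.135, 1.04 and 0.380 in shNC, without overlap (3.02 ± 0.78; adjusted p = 0.00845, edgeR). Ddx58, which encodes RIG-I, had 12.0, 9.06 and 4.64 CPM in shBmal1, against 5.39, 6.20 and 6.91 CPM in shNC. The third of its shBmal1 libraries lay below all shNC libraries, and the value of 0.47 was not called (adjusted p = 0.246, edgeR). Without shBmal1 replicate 3 it was 0.73 (adjusted p = 0.0240, the lowest of a range up to 0.989 over the alternatives).

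Mavs, the adaptor on the mitochondrial membrane (ENSRNOG00000025295, chromosome 3), went the other way. It had 12.6, 13.1 and 8.78 CPM in shBmal1, against 38.3, 37.4 and 37.6 CPM in shNC, so that the highest shBmal1 library was well under the lowest shNC library (−1.72 ± 0.16; adjusted p = 2.84e-05, edgeR). Trim25, a ubiquitin ligase that promotes RIG-I signalling, had 19.8 to 25.4 CPM in shBmal1 and 20.4 to 24.4 CPM in shNC and was not called (−0.03; adjusted p = 0.871, edgeR). With TPM it was called at −0.38 (adjusted p = 0.0199, range over the alternatives 0.0199 to 0.933), the shift of all genes in that scaling.

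The receptor chains were lower. Ifnar1 (ENSRNOG00000028594, chromosome 11) had 32.5, 38.1 and 35.5 CPM in shBmal1, against 70.8, 73.1 and 72.1 CPM in shNC. The groups were separate, with an SD of 2.79 CPM in shBmal1 and 1.16 CPM in shNC (−1.02 ± 0.08; adjusted p = 1.39e-05, edgeR). Ifnar2, which lies 81556 bases before Ifnar1 on the same chromosome in the table's coordinates, had 9.11 to 11.8 CPM in shBmal1 and 13.9 to 15.5 CPM in shNC (−0.47 ± 0.16; adjusted p = 0.0273, edgeR). Its call was lost without shNC replicate 1 or 2 (adjusted p = 0.0756 and 0.0817), with library totals as the only scaling (0.1101) and with a stricter filter (0.0507), in a range of 8.66e-04 to 0.1101 over the alternatives.

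The receptor kinases differed from each other. Tyk2 had 13.8, 19.3 and 13.6 CPM in shBmal1, against 26.8, 25.8 and 23.8 CPM in shNC (−0.71 ± 0.16; adjusted p = 0.00418, edgeR), and lost its call after a gene-length trend was removed (−0.34; adjusted p = 0.0870, range 5.54e-04 to 0.0870). Jak1, the most abundant of the 4 per length, had 221, 246 and 232 CPM in shBmal1, against 230.4, 222 and 220.4 CPM in shNC. These overlap, and the value of 0.06 ± 0.06 was not called (adjusted p = 0.442, edgeR). Its call depended on scaling, at −0.31 with TPM (adjusted p = 0.00867), 0.22 with library totals only (0.0114) and 0.38 after the length trend was removed (0.00205), in a range of 0.00205 to 0.836.

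STAT and IRF factors were split. Stat2 (ENSRNOG00000031081, chromosome 7) had 172, 139 and 152 CPM in shBmal1, against 42.1, 41.8 and 42.6 CPM in shNC. This was 3.66-fold higher in shBmal1, with all libraries separate (1.87 ± 0.09; adjusted p = 7.73e-07, edgeR). The DNA-binding subunit Irf9 had 20.9, 9.06 and 7.12 CPM in shBmal1, against 9.94, 9.01 and 12.1 CPM in shNC. The first shBmal1 library was above all shNC libraries and the third below them, and the value of 0.24 was not called (adjusted p = 0.586, edgeR). It turned to −0.39 without shBmal1 replicate 1 and stayed uncalled.

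Irf1, an activator that interferon and NF-kB signals induce, had 23.2, 25.1 and 21.0 CPM in shBmal1, against 5.66, 6.33 and 5.30 CPM in shNC (2.00 ± 0.15; adjusted p = 8.63e-06, edgeR). Irf2, known as an antagonist of IRF1 at shared sites, had 5.17, 3.10 and 2.90 CPM in shBmal1, against 16.1, 17.1 and 16.7 CPM in shNC (−2.17 ± 0.24; adjusted p = 8.76e-05, edgeR). The pair was separate between groups in opposite directions. Irf3, which the sensors activate without new synthesis, had 16.4, 8.98 and 10.3 CPM in shBmal1, against 31.7, 33.0 and 31.9 CPM in shNC (−1.45 ± 0.21; adjusted p = 4.08e-04, edgeR). It overlaps Bcl2l12 on the opposite strand by 865 bases, and the sources used here do not say whether reads were counted by strand. Bcl2l12 averaged 11.6 CPM in shBmal1 and 10.2 CPM in shNC.
Irf7, an interferon-induced amplifier of the response, had 7.00, 3.02 and 2.24 CPM in shBmal1, against 3.73, 4.19 and 3.54 CPM in shNC. The first shBmal1 library lay above and the remaining ones below the shNC libraries, and the value of 0.08 was not called (adjusted p = 0.872, edgeR), turning to −0.57 without shBmal1 replicate 1. It overlaps Phrf1 on the opposite strand by 65 bases, and Phrf1 averaged 163.9 CPM in shBmal1 and 86.4 CPM in shNC.

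The ubiquitin-like modifier ISG15 and its protease rose. Isg15 (ENSRNOG00000021802, chromosome 5) had 8.94, 6.12 and 4.64 CPM in shBmal1, against 1.19, 1.85 and 1.28 CPM in shNC (2.18 ± 0.36; adjusted p = 8.94e-04, edgeR). Usp18, which removes ISG15 and also restrains the receptor, had 42, 65 and 13 counts in shBmal1, against 20, 24 and 30 counts in shNC, or 4.53, 5.31 and 1.08 against 0.449, 0.510 and 0.712 CPM. The third shBmal1 library stood closest to shNC but did not overlap it (2.70 ± 0.64; adjusted p = 0.00549, edgeR).

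**Figure D2:**
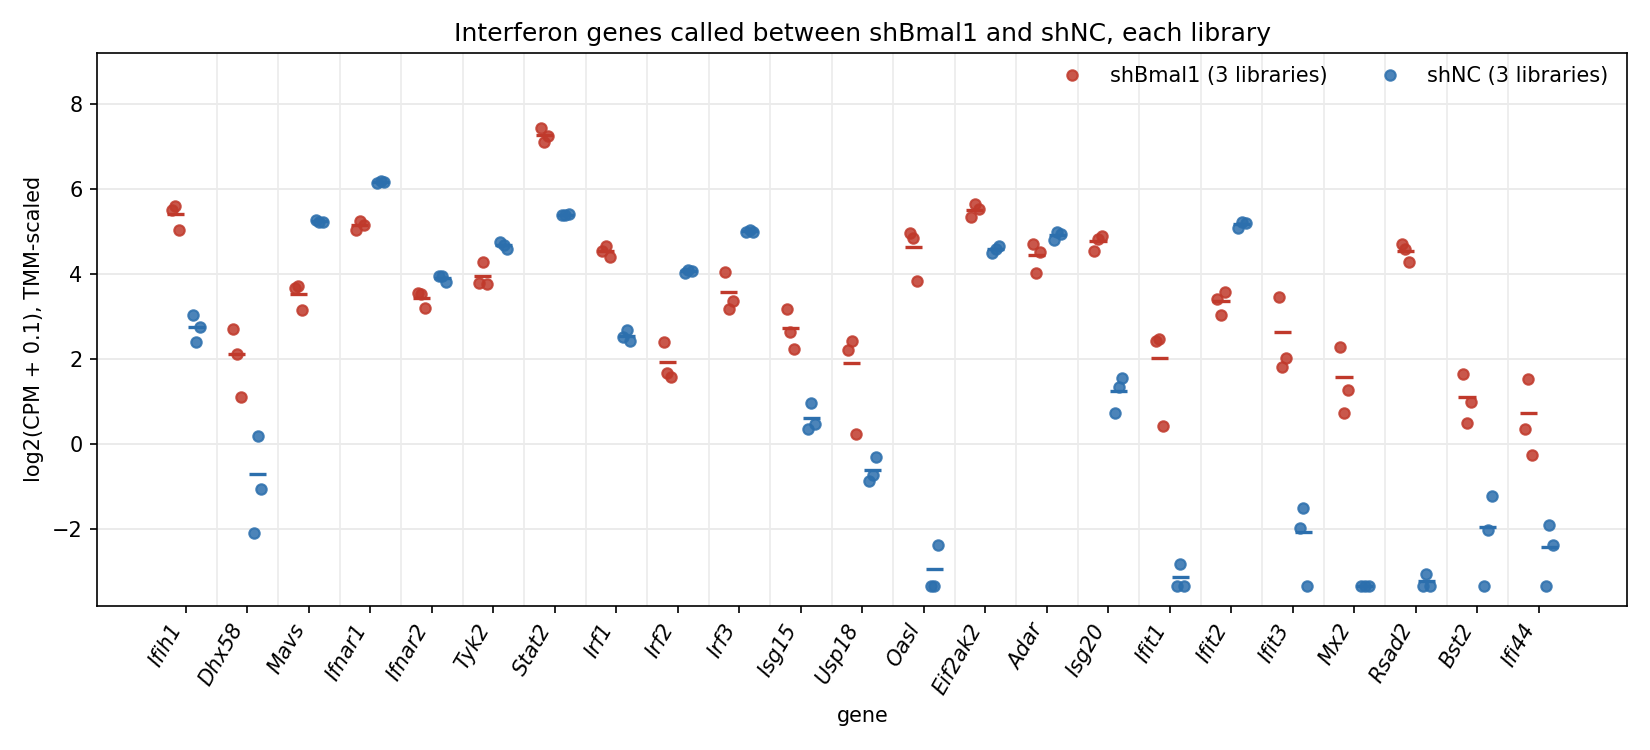
Log2(CPM + 0.1) in each library for the 23 called interferon genes, with shBmal1 in red on the left and shNC in blue on the right of each column and bars at the log2 of the group mean + 0.1. The 15 genes that rose include 7 whose shNC points lie near the floor of the scale, and the 8 that fell have shNC points close together. No gene in the plot has overlapping groups.

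Antiviral effectors held the largest differences, most of them from nearly no counts in shNC. Rsad2, which encodes viperin, an enzyme that makes a chain-terminating nucleotide (ENSRNOG00000007539, chromosome 6), had 243, 293 and 234 counts in shBmal1, against 0, 1 and 0 counts in the deeper shNC libraries. The ratio of scaled counts, shBmal1 over shNC, was 3064 with a 95% exact interval of 548 to 121200, which covers counting error only, and the adjusted p was 3.33e-07 (edgeR). The authors' FPKM was 7.06, 6.46 and 5.29 in shBmal1. Oasl, an oligoadenylate synthetase-like gene, had 291, 351 and 172 counts in shBmal1, against 0, 0 and 4 counts in shNC (9.48 ± 0.70; adjusted p = 7.89e-06, edgeR). Mx2, a dynamin-like antiviral GTPase gene, had 44, 19 and 28 counts in shBmal1 and no count in shNC. This is 121-fold higher in shBmal1 against a floor of 3 counts over the shNC group (adjusted p = 4.48e-04, edgeR). All 3 genes passed the filter through shBmal1.

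Some other antiviral genes of the same families had few or no counts in either group. The neighbouring Mx1 had 4, 0 and 0 counts in shBmal1, against 0, 4 and 0 counts in shNC, and was not tested. The oligoadenylate synthetases activate RNase L. Oas1a and Oas3 had none in any library, and Oas2 had 8, 0 and 0 counts in shBmal1 and none in shNC. From the wider list, Oas1f, named after its values were seen, had 20, 11 and 4 counts in shBmal1 and none in shNC. It was 46.4-fold higher against the floor of 3 counts over the shNC group and was not tested. A count of 0 over the group allows up to 0.0893 CPM in shBmal1 and 0.0224 CPM in shNC. Oasl lies on the same chromosome 12 as Oas1a, Oas2 and Oas3, with 6080943 bases between it and Oas2.

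Among effectors that passed the filter in both groups, Isg20, an exonuclease gene (ENSRNOG00000054561, chromosome 1), had 23.3, 28.5 and 29.7 CPM in shBmal1, against 1.57, 2.42 and 2.85 CPM in shNC, 11.9-fold higher in shBmal1 (3.57 ± 0.24; adjusted p = 5.38e-06, edgeR). Eif2ak2, which encodes PKR, the kinase that halts translation on double-stranded RNA, had 40.4 to 50.3 CPM in shBmal1 and 22.5 to 25.2 CPM in shNC (0.93 ± 0.11; adjusted p = 1.08e-04, edgeR). Adar, which edits double-stranded RNA, had 16.1 to 26.2 CPM in shBmal1 and 28.0 to 31.9 CPM in shNC (−0.49 ± 0.17; adjusted p = 0.0350, edgeR). Its call was lost without any one shNC replicate (adjusted p = 0.0584, 0.112 and 0.0983 without replicates 1, 2 and 3), and under several other settings, in a range of 0.00315 to 0.340. Zc3hav1, which encodes the zinc-finger antiviral protein, had 44.4 to 66.1 CPM in shBmal1 and 58.2 to 63.4 CPM in shNC and was not called (−0.25; adjusted p = 0.178, edgeR). Without shBmal1 replicate 1 it was called at −0.49 (adjusted p = 9.06e-04, range 9.06e-04 to 0.624). Samhd1, a nucleotide hydrolase gene, had 2.48 to 4.39 CPM in shBmal1 and 2.42 to 3.70 CPM in shNC (0.38; not called).

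The IFIT genes sit side by side on chromosome 1 and encode proteins that bind viral RNA, yet they moved apart. Ifit2 (ENSRNOG00000036604, 252894663 to 252900726, forward strand) had 10.6, 8.08 and 11.8 CPM in shBmal1, against 33.6, 37.6 and 36.7 CPM in shNC (−1.82 ± 0.15; adjusted p = 1.78e-05, edgeR). Ifit3, which starts 5508 bases after the end of Ifit2, had 101, 42 and 48 counts in shBmal1, against 7, 12 and 0 counts in shNC. Ifit1, which starts 32721 bases after the end of Ifit3, had 49, 67 and 15 counts in shBmal1, against 0, 2 and 0 counts in shNC. The 2 genes that rose (log2 fold change 5.40 ± 0.94 and adjusted p = 0.00114 for Ifit3, adjusted p = 3.28e-04 for Ifit1, edgeR) passed the filter through shBmal1, and the scaled ratio for Ifit1 was 261 (95% exact interval 70.7 to 2175, counting error only). Ifit1bl, a copy named for its likeness to Ifit1 and picked after its values were seen, lies between Ifit3 and Ifit1 on the other strand and had no count in shBmal1, against 64, 69 and 48 counts in shNC. How reads were divided between these related genes is uncertain.

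Bst2, which encodes tetherin, a protein that holds budding virus at the membrane, had 28, 16 and 23 counts in shBmal1, against 0, 7 and 14 counts in shNC, or 1.31 to 3.02 CPM in shBmal1 and 0 to 0.332 CPM in shNC (3.66 ± 1.05; adjusted p = 0.0138, edgeR). With shNC replicate 2 left out it was no longer called (adjusted p = 0.0523, range 4.08e-04 to 0.0584). Ifi44 had 11, 34 and 9 counts in shBmal1, against 0, 8 and 4 counts in shNC (4.08 ± 1.04; adjusted p = 0.00811, edgeR), and missed the threshold without shBmal1 replicate 2 (adjusted p = 0.0510, range 1.78e-04 to 0.0510). Its neighbour Ifi44l had 0, 19 and 7 counts in shBmal1 and none in shNC and was not tested. Ifi44 and Ifi44l therefore had their highest count in the second shBmal1 library. Bst2 and Ifi44 reached the count filter in shBmal1 libraries alone, which largely fixed their direction.

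The remaining stimulated genes were not called. Ifi27, a gene for a small hydrophobic protein and the most abundant member per length in both groups, had 94.9, 88.6 and 91.1 CPM in shBmal1, against 84.2, 93.3 and 95.3 CPM in shNC (0.01; adjusted p = 0.921, edgeR). It was called lower with TPM (−0.36; adjusted p = 0.00242) and after the length trend was removed (−0.31; 0.00858), in a range of 0.00237 to 0.998. Parp9, an ADP-ribosyltransferase gene, had 17.2, 5.63 and 4.39 CPM in shBmal1, against 8.53, 7.69 and 8.69 CPM in shNC. One shBmal1 library lay above and the others below every shNC library (0.11; adjusted p = 0.840, edgeR), and without shBmal1 replicate 1 the gene was called at −0.76 (adjusted p = 0.0165, range 0.0165 to 0.947). Ifi35 had 5.17, 2.45 and 1.16 CPM in shBmal1, against 5.81, 4.97 and 4.25 CPM in shNC (−0.80; adjusted p = 0.180, edgeR), and was called at −1.50 without shBmal1 replicate 1 (adjusted p = 0.0116, range 0.0116 to 0.348). Parp14 had 10.8 to 17.3 CPM in shBmal1 and 13.3 to 17.6 CPM in shNC (−0.18; not called).

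**Figure D3:**
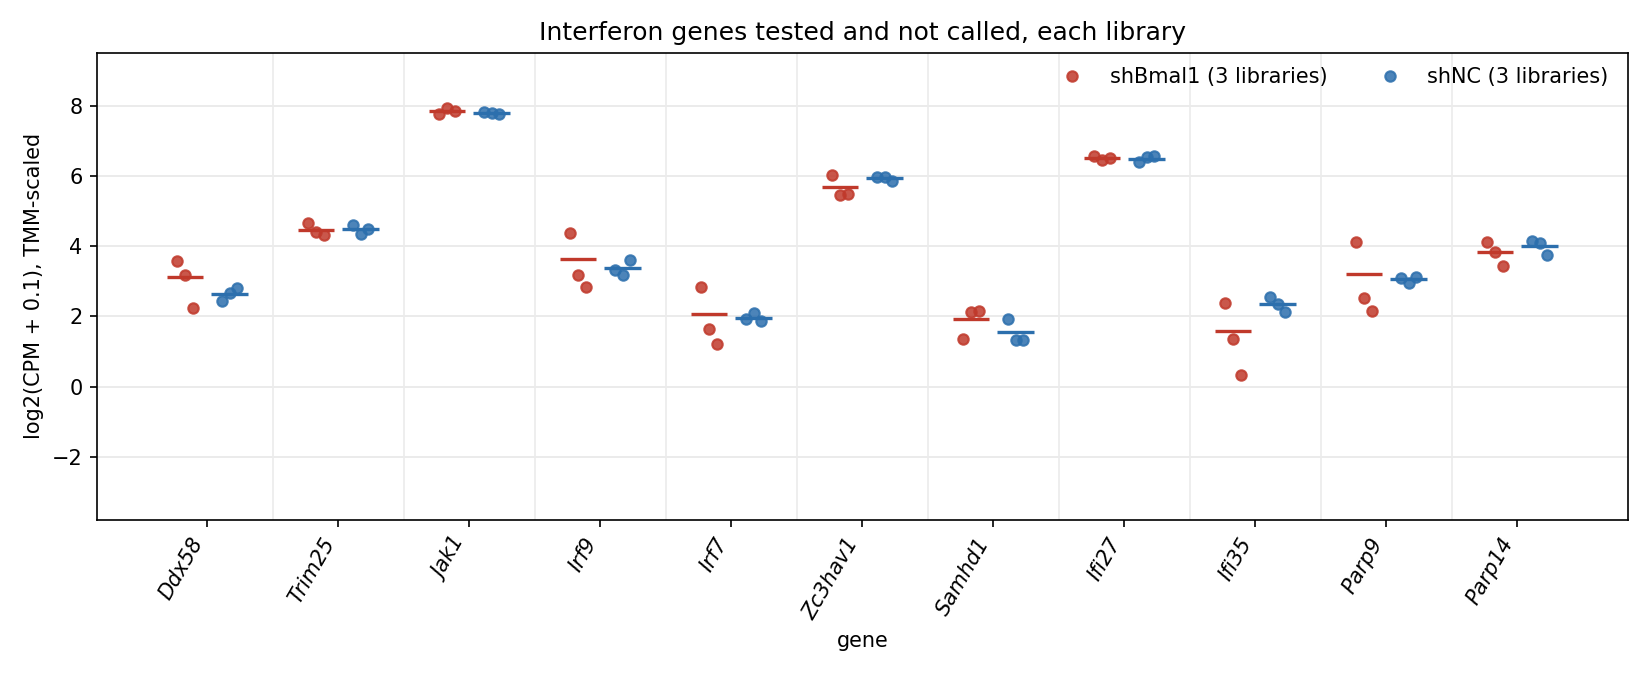
Log2(CPM + 0.1) in each library for the 11 interferon genes that were tested and not called, with shBmal1 in red on the left and shNC in blue on the right of each column and bars at the log2 of the group mean + 0.1. For Irf9, Irf7, Ifi35 and Parp9 the highest shBmal1 point stands well above the other two, and it is replicate 1 in each.

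The first shBmal1 library carried more of these transcripts than the others of its group. Replicate 1 was the highest shBmal1 library for 21 of the 34 tested members, replicate 2 for 10 and replicate 3 for 3, while over all tested genes the shares were 35.2, 33.7 and 30.2%. Among the 11 members not called, replicate 1 was highest for 9. The summed level of all 39 members was 1027, 941 and 872 CPM in shBmal1, against 799, 806 and 796 CPM in shNC. Replicate 1 also had the lowest total count and the highest share of mitochondrial rRNA of its group (1.31%, against 0.725 and 0.722% in the other two shBmal1 libraries), and the part of these in its level was not tested. The median coefficient of variation over tested members was 26.3% in shBmal1 and 9.13% in shNC, against 17.1% and 7.87% over all tested genes. Without replicate 1, 16 members were called higher and 11 lower of 35 tested, while 34.4% of all genes tested in that setting were higher and 35.3% lower.

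Per length, the order of the members differed between the groups. In shBmal1 the authors' FPKM was highest for Ifi27 (114 ± 3.89, SD, n = 3), Jak1 (54.0 ± 2.86), Stat2 (38.1 ± 4.05) and Isg20 (30.9 ± 4.10). Stat2 and Isg20 overlapped narrowly, as their libraries ran from 34.1 to 42.2 and from 26.3 to 34.2 FPKM. In shNC it was highest for Ifi27 (105 ± 7.85), Jak1 (48.1 ± 0.64), Irf3 (20.5 ± 0.53) and Ifnar1 (16.2 ± 0.40), whose libraries did not overlap with their neighbours in this order. Eif2ak2, Irf1, Ifih1 and Zc3hav1 followed in shBmal1 at 10.1 to 11.5 FPKM with overlapping libraries. A mean of at least 10 FPKM was reached by 8 members in shBmal1 and by 6 in shNC, and 7 members in shBmal1 and 16 in shNC were below 1 FPKM.

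Genes of a wider list, which holds interferon pathway genes and related innate immune and RNA genes, also moved both ways. Of its 132 symbols, some of them aliases, 116 were found and 88 tested. Of these 88, 36 were higher (40.9%, against 36.0% of all tested genes), 24 lower (27.3%, against 35.3%) and 28 not called. Their median log2 fold change was 0.35. Of the 88 tested, 6 reached the count filter in shBmal1 libraries alone and 2 in shNC libraries alone, which largely fixed their direction. The list includes Tbk1, Traf6 and Cgas, which act upstream of interferon production. Tbk1, the kinase that activates IRF3, had 157, 170 and 145 CPM in shBmal1, against 13.7, 14.7 and 15.1 CPM in shNC (3.44 ± 0.09; adjusted p = 5.46e-08, edgeR). Traf6, a ubiquitin ligase of Toll-like receptor signalling, had 101, 102 and 106 CPM in shBmal1, against 9.14, 9.67 and 11.5 CPM in shNC (3.35 ± 0.11; adjusted p = 1.29e-07, edgeR). Cgas, the sensor of cytosolic DNA, had 37.8, 35.4 and 23.7 CPM in shBmal1, against 0.539, 0.552 and 0.760 CPM in shNC (5.70 ± 0.26; adjusted p = 6.63e-07, edgeR). In all 3 the libraries of the groups were far apart.

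Herc6, a gene of the HERC ligase family to which the human ISG15 ligase belongs, averaged 25.2 ± 5.84 CPM in shBmal1, against 1.41 ± 0.43 CPM in shNC (SD, n = 3; log2 fold change 4.15 ± 0.29, SE; adjusted p = 5.57e-06, edgeR). Tap1, a peptide transporter gene of antigen presentation, averaged 82.6 ± 5.23 CPM in shBmal1, against 23.9 ± 1.25 CPM in shNC (1.79 ± 0.09; adjusted p = 7.95e-07, edgeR). The other called genes of smallest p that rose did so by less. Azi2, an adaptor of TBK1, was 1.39 ± 0.09 higher on the log2 scale. Trafd1, a feedback regulator of innate signalling, was 1.27 ± 0.08 higher on that scale. Dicer1, a nuclease that cuts double-stranded RNA, was 1.06 ± 0.07 higher (adjusted p of 3.04e-06 to 3.95e-06 for these 3 genes, edgeR). Ptpn11, which encodes the phosphatase SHP2, was lower at 95.4 ± 2.94 CPM in shBmal1, against 227 ± 4.52 CPM in shNC (SD, n = 3; −1.25 ± 0.06; adjusted p = 7.01e-07, edgeR).
The interferon genes themselves were near no count, and their values were looked up for all list members of that kind. Ifnb1 had 8, 2 and 4 counts in shBmal1, Ifna1 had 6, 4 and 0, and Ifng had 5, 0 and 0, with no count of any of the 3 in shNC. Against a floor of 3 counts over the shNC group, Ifnb1 was 18.6-fold higher in shBmal1. That value leaves out the counting error of the few shBmal1 counts, and Ifnb1 was not tested. Ifnk, Ifnl1 and Ifnl3 had no count in any library.

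**Figure D4:**
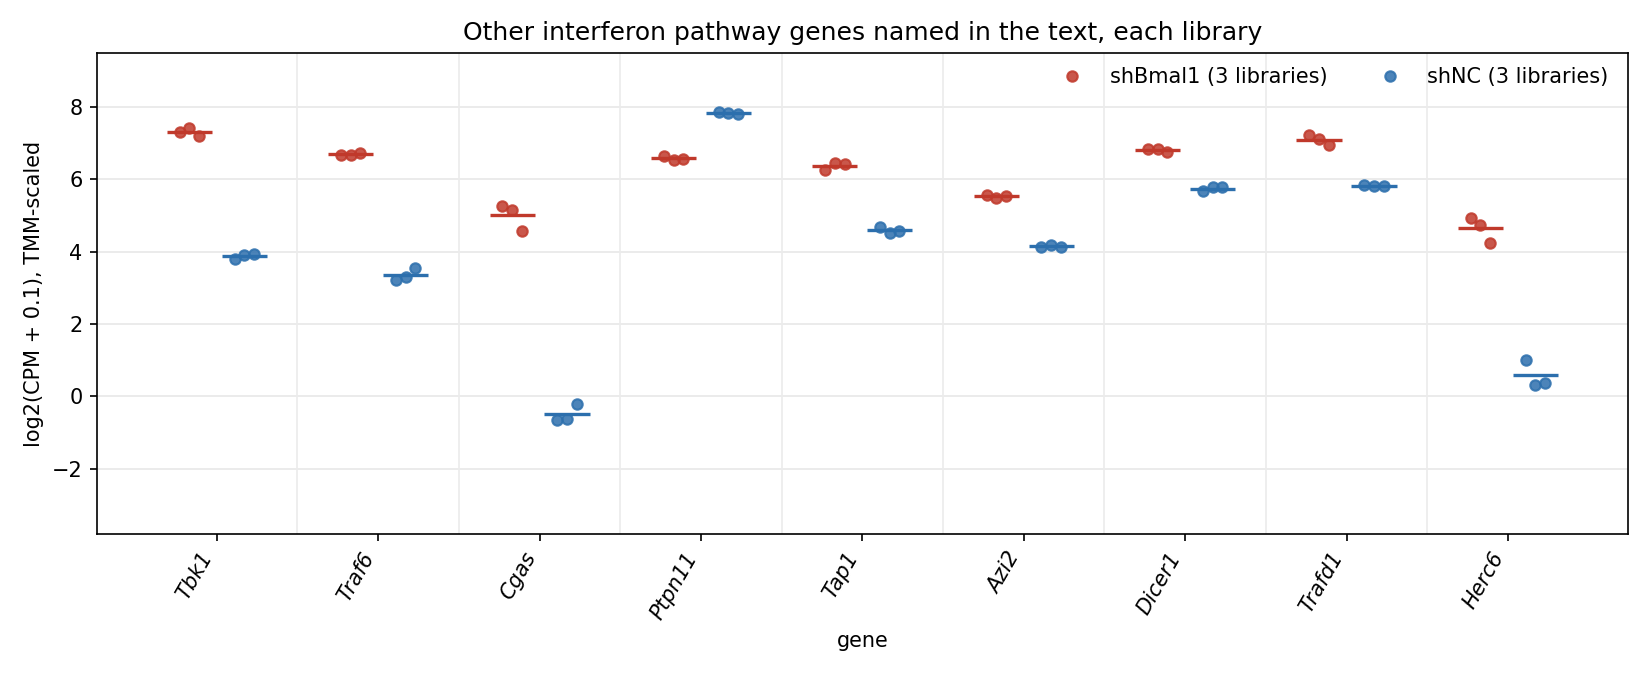
Log2(CPM + 0.1) in each library for the 9 genes of the wider interferon list that are named for their small adjusted p, with shBmal1 in red on the left and shNC in blue on the right of each column and bars at the log2 of the group mean + 0.1. Cgas, Herc6, Tbk1 and Traf6 show the widest gaps upward, and Ptpn11 is the one gene in the plot that is lower in shBmal1.

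Markers of other cell types were also measured. Of 20 immune markers, 11 to 13 had a count in shBmal1 libraries and 6 to 10 in shNC libraries, and 6 could be tested. Their sum was 62.5, 41.5 and 50.1 CPM in shBmal1, against 35.1, 36.3 and 47.8 CPM in shNC, with Cd14 the highest of them (23.3 to 28.7 CPM in shBmal1 and 31.9 to 42.0 CPM in shNC). Ptprc, the pan-leukocyte marker, had 0.431, 1.39 and 0 CPM in shBmal1, against 0, 0 and 0.190 CPM in shNC. Tyrobp had no count in any library. Fcer1g had 15.7, 7.92 and 8.86 CPM in shBmal1, against 0, 0.0637 and 0.237 CPM in shNC, and with Lyz2 and Cd68 was called higher, while Cd14 was called lower. Cd68 was at 1.55 to 3.88 CPM in shBmal1 and 0.255 to 0.539 CPM in shNC (log2 fold change 2.81; adjusted p = 0.00223, edgeR). The endothelial marker Pecam1 was not matched by symbol and not analysed here, and the 9 endothelial markers found summed to 53.0 to 62.7 CPM in shBmal1 and 35.8 to 44.3 CPM in shNC. Of the 5 endothelial markers tested, 4 were called higher and Esam was called lower. Of the 6 immune markers tested, 3 were called higher, 1 lower and 2 not called. Over all tested genes, 36.0% were called higher and 35.3% lower. Tek, a receptor gene placed on the endothelial list, had 6.79, 5.63 and 3.73 CPM in shBmal1, against 0.180, 0.340 and 0.926 CPM in shNC (log2 fold change 3.47; adjusted p = 0.00143, edgeR). Vwf, which encodes von Willebrand factor, had 1.63 to 3.12 CPM in shBmal1 and 0 to 0.314 CPM in shNC (4.06; adjusted p = 0.00823, edgeR). Tie1 had 0.571 to 1.29 CPM in shBmal1 and 0 to 0.0950 CPM in shNC (3.63; adjusted p = 0.0101, edgeR). Egfl7, the highest of the list, had 39.1 to 54.1 CPM in shBmal1 and 26.2 to 32.8 CPM in shNC (0.61; adjusted p = 0.00605, edgeR). Esam had 0.828 to 3.84 CPM in shBmal1 and 9.16 to 10.9 CPM in shNC (−2.13; adjusted p = 0.00324, edgeR). Cdh5, which was not tested, had 0, 1.22 and 0 CPM in shBmal1 and 0.0898, 0 and 0 CPM in shNC. Fcer1g, Vwf and Tie1 reached the count filter in shBmal1 libraries alone, which largely fixed the direction of their calls. The markers named beyond Ptprc, Cd68 and Pecam1 were chosen after their values were seen. The part of such cells in the interferon values was not tested.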

How the data were processed

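The deposited table holds raw read counts and FPKM per gene for 6 libraries, per the file headers. FPKM were computed by the authors, per the file headers, and genes with no count are listed by them at 1e-04. Per the labels' protocols, polyadenylated RNA was sequenced as paired-end reads. Tools named in the submitters' processing notes, without roles, are HISAT2 2.0.4, cutadapt 1.9, DESeq2, edgeR and StringTie 1.3.4d. The sources used here name neither the table's genome build and annotation nor the counting program and its strand setting. All per-sample columns had a matching sample.

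Groups and replicate numbers came from the sample titles. Genes were filtered by filterByExpr with a minimum total of 15. Its minimum count of 10 applies at the median library size, equal to 0.359 unscaled CPM. A shBmal1 library thus reached it with fewer counts than a deeper shNC library. Genes that passed were scaled by TMM and compared by the quasi-likelihood test (glmQLFTest) of edgeR 4.0.16 in R 4.3.3 over the whole table. Benjamini-Hochberg adjustment was used, without a replicate block. Alternatives used DESeq2 1.42.0, and limma 3.58.1 on log2(TPM + 1). Of 32623 genes, 12293 had no count and 14342 were tested. CPM are TMM-scaled. The procedure was run on simulated counts in which few genes changed. In these data 71.3% of tested genes were called, so that run cannot check the scaling under such broad change. Libraries of a group differed beyond sampling noise (chi-square over its degrees of freedom, 11.2 to 25.2). Intervals cover counting error only, and floors cover only that of the group without counts. Same-numbered libraries did not deviate together.

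Promoter windows are RefSeq's, build GRCr8, matched by symbol or synonym (scripts in Python 3.11.15). Members, role groups and lists were chosen with earlier results of these data known. Per-library values are given for Arntl, members called with a log2 fold change of at least 1 in size, and uncalled receptors, kinases and STATs; those of other members were added after values were seen. From the wider list the 10 called genes with the smallest adjusted p were to be named, of which 9 are, and some items are not reported here.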

Additional observations from a re-analysis of the deposited data

How the results depend on the processing

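Across 16 alternative settings, 18 of the 34 tested members kept their call and direction wherever they were tested, and 16 changed under some setting. The counts of members called higher and lower ran from 14 to 16 and from 6 to 11 with one replicate left out, and the members' median from 0.12 to 0.45. Of all genes tested in those settings, 32.8 to 34.4% were higher and 31.8 to 35.3% lower. With a mean of at least 5 CPM, 7 of 23 tested members were called higher and 6 lower. Of all genes tested in that setting, 38.2% were higher and 40.3% lower. With TPM the members' median was −0.28 and 13 were called lower, and with TPM and a pseudocount of 0.1 these were −0.29 and 13. In these scalings the median of all genes was −0.38 and −0.43, and 46.9% and 46.2% of all tested genes were lower. Of all calls, 36.1% and 36.3% were higher there, against 50.5% in the main fit. Without a filter the median of all genes was 0.31. Of the members called higher or lower none reversed. The others reversed as follows, the cause not tested. With TPM, and then with TPM and a pseudocount of 0.1, the log2 fold changes were −0.36 and −0.36 for Ifi27, −0.34 and −0.46 for Irf7, −0.24 and −0.27 for Irf9, −0.31 and −0.32 for Jak1, −0.40 and −0.51 for Parp9, and −0.0076 and −0.019 for Samhd1, and with the pseudocount of 0.1 −0.0056 for Ddx58. After removal of the gene-length trend they were −0.31 for Ifi27, 0.30 for Parp14, 0.12 for Trim25 and 0.11 for Zc3hav1. Without a filter they were −0.066 for Ifi27 and −0.018 for Jak1. Trim25 was 0.032 with the DESeq2 test, 0.033 with DESeq2 size factors, 0.13 with library totals and 0.048 with the stricter filter. With one replicate left out, values ran from −0.048 to 0.043 for Ifi27, −0.57 to 0.35 for Irf7, −0.39 to 0.49 for Irf9, −0.016 to 0.070 for Jak1, −0.76 to 0.42 for Parp9 and −0.17 to 0.035 for Trim25. With the replicate number as a block, Irf7 was −0.067 and Parp9 −0.13, and 14 members were called higher and 7 lower. Of all tested genes, 4663 (32.5%) were higher and 4752 (33.1%) lower in that setting. Adar (−0.51, adjusted p = 0.0566, edgeR) and Bst2 (4.00, adjusted p = 0.0584, edgeR) lost their calls there. The numbers share no stated culture or day, and deviations of same-numbered libraries correlated at −0.071, −0.0026 and 0.020. In the wider list 25 to 40 of the 61 to 104 genes tested were called higher over these settings. The share of all tested genes called higher ran from 25.8 to 39.6%. Leaving out rRNA genes changed no member's call. The 4.44-fold lower depth of shBmal1 limits values of a few CPM there.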
